A study of Mus musculus with 4 samples.

Results

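Transcripts of 8 genes of the transforming growth factor beta (TGF-beta) system were followed across sections of the embryonic mouse head: the ligands Tgfb1, Tgfb2 and Tgfb3, the receptors Tgfbr1 and Tgfbr2, the co-receptor Tgfbr3, the ligand-binding matrix protein Ltbp1 and the matrix protein Tgfbi. They were taken by gene symbol and make up 8 of the 19465 genes listed in each count matrix. The study used Visium spatial RNA sequencing on formalin-fixed, paraffin-embedded coronal sections through the middle of the palate of wild-type C57BL/6J heads, to follow the palate between embryonic day (E) 14.5, when the shelves meet, and E15.5, when they fuse. Each stage was measured on 2 capture areas, the first with the section of replicate 1 and the second with the sections of replicates 2, 3 and 4, so that 4 libraries held 8 sections. No treatment or mutant was included, and the labels do not say whether the areas hold separate animals, so p-values measure the spread between these capture areas only.

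TGF-beta ligands are secreted in a latent form, bound to their own propeptide and, through it, to a latent TGF-beta binding protein such as LTBP1 that anchors the complex in the matrix. Once released, a ligand binds the type II receptor TGFBR2, which recruits and phosphorylates the type I receptor TGFBR1, and TGFBR1 then activates SMAD2 and SMAD3. TGFBR3 (betaglycan) presents ligand to the signalling receptors and is best known for helping TGF-beta 2, and TGFBI is a secreted matrix protein first found as a product of TGF-beta stimulated cells. In the palate the pathway is known above all for Tgfb3, which the medial edge epithelium needs for fusion, and in the skeleton for the TGF-beta 1 stored in bone matrix.

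In the GENCODE M21 annotation of GRCm38, Tgfb1 lies on chromosome 7 (25687002 to 25705077, plus strand), Tgfb2 on chromosome 1 (186622792 to 186705989, minus strand) and Tgfb3 on chromosome 12 (86056745 to 86079041, minus strand). Tgfbr1 lies on chromosome 4 (47353222 to 47414931, plus strand), Tgfbr2 on chromosome 9 (116084293 to 116175360, minus strand) and Tgfbr3 on chromosome 5 (107106570 to 107289629, minus strand). Ltbp1 lies on chromosome 17 (75005568 to 75392512, plus strand) and Tgfbi on chromosome 13 (56609523 to 56639562, plus strand).

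The 4 areas held 6357 tissue spots and between 15438992 and 109127953 unique molecular identifiers (UMIs, counted transcripts). The median spot held 6752 UMIs in the E14.5 replicate 1 area and between 45058.5 and 64051 in the other 3, so values of E14.5 replicate 1 rest on the fewest transcripts. A spot covers several cells, so fewer cells of a type and less RNA per cell cannot be told apart. Levels are given as the UMIs of a gene per 1000000 UMIs of the same spots (CPM) and were not compared between genes. Because each capture array uses the same set of spot barcodes, between 540 and 1388 barcode sequences recurred in each pair of areas; they mark array positions and not shared cells.

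Tissue spots were assigned to regions by marker genes that included none of the 8 genes. The regions were bone (Ibsp, Sp7, Alpl), cartilage (Col2a1, Acan), skeletal muscle (Myh3, Ckm), stratified epithelium (Krt5, Krt14), neurons (Stmn2, Snap25), radial glia (Fabp7, Pax6), olfactory epithelium (Omp, Gfy), lens (Cryaa, Lim2), retina with pigment epithelium (Tyr), spots of a list of oral and palatal mesenchyme genes (Osr2, Pax9), fibroblast mesenchyme (Lum, Dpt), choroid plexus (Ttr) and multiciliated epithelium (Foxj1). Of these, 10 held at least 20 spots in all 4 areas, lens and multiciliated spots in 3 and choroid spots in 2, and choroid spots were not tested. The palatal marker Tbx22 was below 1 CPM and was not used, so the Osr2 and Pax9 spots were not told apart from other mesenchyme by it. In the E15.5 replicate 1 section some of these spots lay at the top edge near neuron spots, and another lay beside a retina spot. The Osr2 and Pax9 spots are thus not all oral or palatal, and results in them are not results of the palate alone. In the region's own spots the summed bone markers stood at 5412 to 7788 CPM, against 545 to 1940 CPM in all tissue, and the summed Osr2 and Pax9 list at 1112 to 1467 CPM, against 258 to 450 CPM. Another 1372 spots belonged to no region.

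The genes of the family had different territories. Among the 10 regions of all 4 areas, to which every order of levels given here is limited, Tgfb1 was highest in bone, Tgfb3 in cartilage, Tgfb2 and Tgfbr1 in the olfactory epithelium, Tgfbr2 and Tgfbr3 in fibroblast mesenchyme, Ltbp1 in the Osr2 and Pax9 spots and Tgfbi in skeletal muscle. All but Tgfbr1 were low in the brain. The map of the E15.5 replicate 1 section shows these territories side by side.

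**Figure D1:**
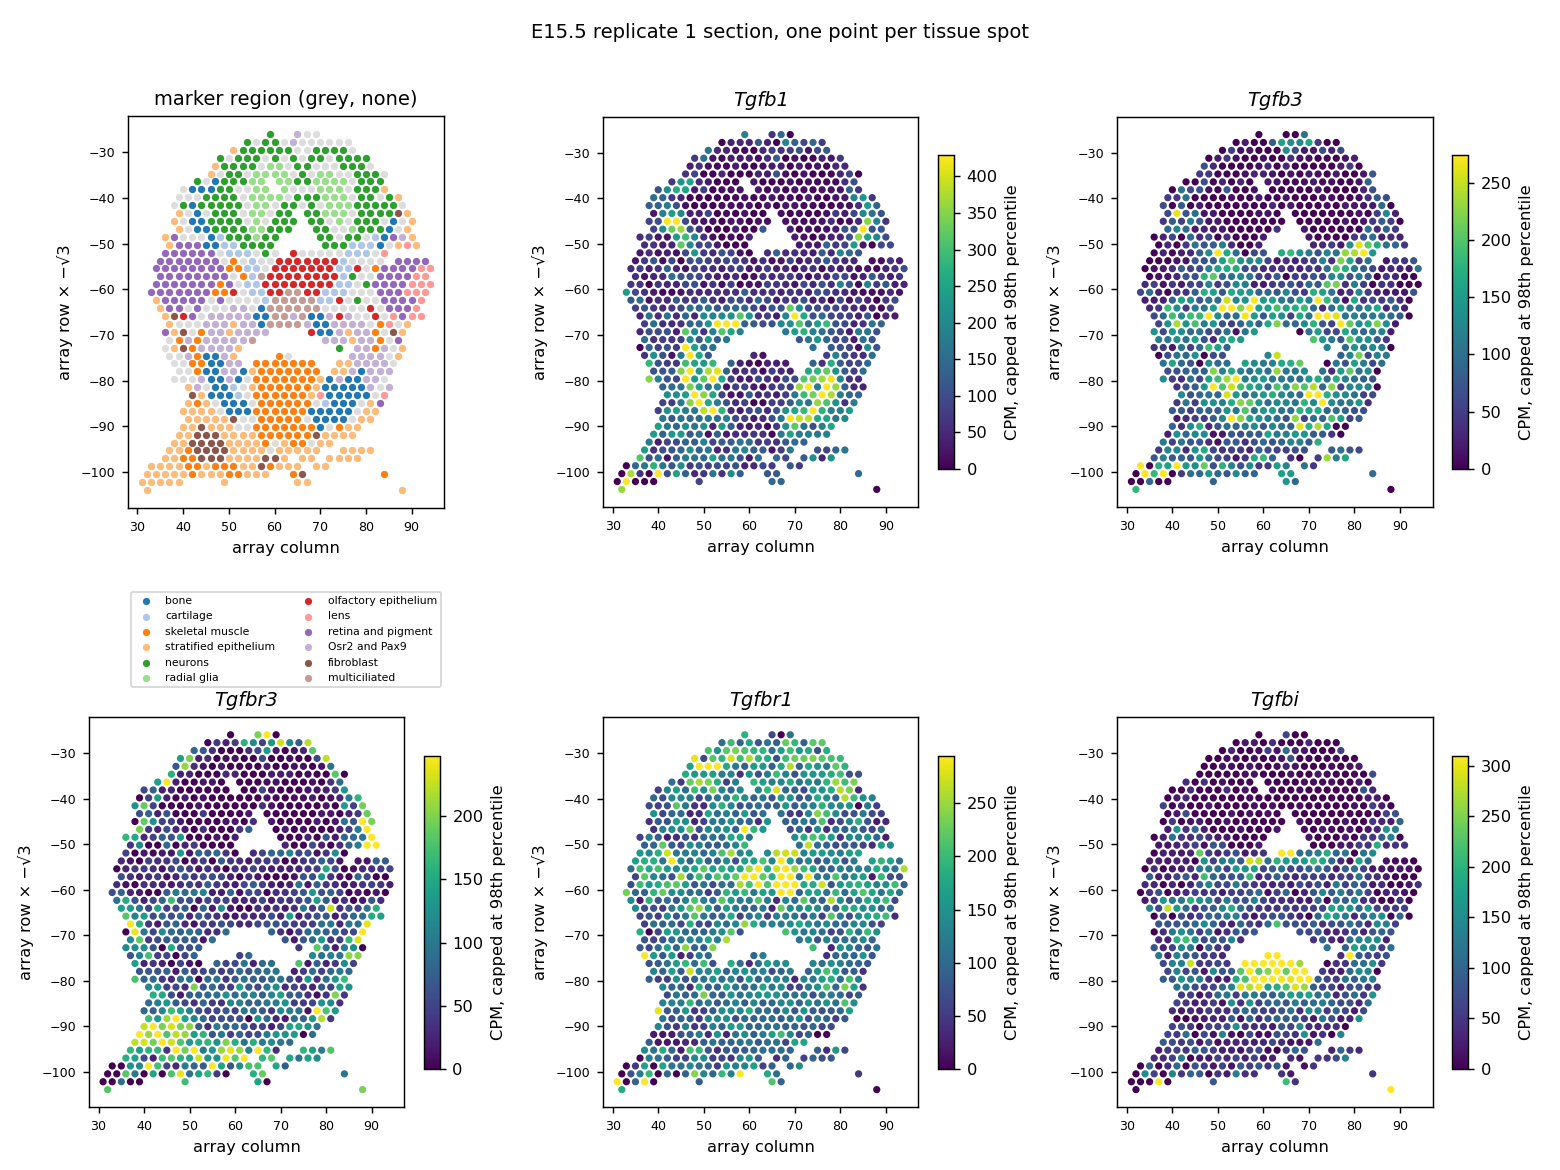
Tissue spots of the E15.5 replicate 1 section, drawn at their array column (x) and array row (y, scaled to the hexagonal grid). The first panel colours each spot by marker region; the others give the CPM of 5 genes per spot, capped at the 98th percentile of the section. Tgfb1 is bright over the bone spots, Tgfbi over the upper muscle spots and Tgfbr3 along the margin of the section, whereas Tgfbr1 is spread over the section and brightest in the olfactory spots.

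Each region was compared with the other tissue spots of the same areas by edgeR's quasi-likelihood test, and a gene was called at an adjusted p under 0.1. Of 96 tests of a gene in a region, 58 were called, 33 higher and 25 lower. These counts have to be read against the share of all genes called, which was large. In bone, 4 of the 8 genes were higher, against 25.2% of all genes tested, and 1 was lower, against 26.8%. In skeletal muscle 6 were higher (20.6% of all genes) and 1 lower (24.4%), and in stratified epithelium 4 were higher (26%) and 3 lower (23.1%). In cartilage 2 were higher (12.8%) and none lower (9.09%), and in fibroblast spots 4 were higher (19.1%) and 1 lower (21.4%).

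In the Osr2 and Pax9 spots 6 of the 8 genes were higher (15.8% of all genes) and none was lower (21.5%). In neuron spots none was higher (35.6%) and 7 were lower (39.9%), and in radial glia spots none was higher (30.9%) and 7 were lower (37.5%). Olfactory spots had 2 higher (16.8%) and 2 lower (14.3%), retina spots 2 higher (8.57%) and 1 lower (9.36%), multiciliated spots 3 higher (16%) and 1 lower (17.4%), and lens spots none higher (4.54%) and 1 lower (4.02%). Brain tissue entered the rest of every other region, and its share differed between areas. With neuron and radial glia spots taken out of the rest, 24 of 80 tests over 10 regions were called higher and 22 lower. In the same regions before, 33 were higher and 11 lower. Against this rest the share of all genes called higher ran from 6.73% (lens) to 23.8% (epithelium). The share called lower ran from 7.64% (lens) to 24.7% (bone). The Osr2 and Pax9 spots kept 3 of their 6 higher genes (10.9% of all genes), namely Tgfb1, Tgfb3 and Ltbp1, and none was lower (15.9%). Choroid spots and spots of no region stayed in this rest, so it can still hold brain tissue. The Osr2 and Pax9 calls of Tgfb1, Tgfb2, Tgfbr2 and Tgfbr3 were each lost when 1 of the areas was left out (adjusted p = 0.10 to 0.25).

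**Figure D2:**
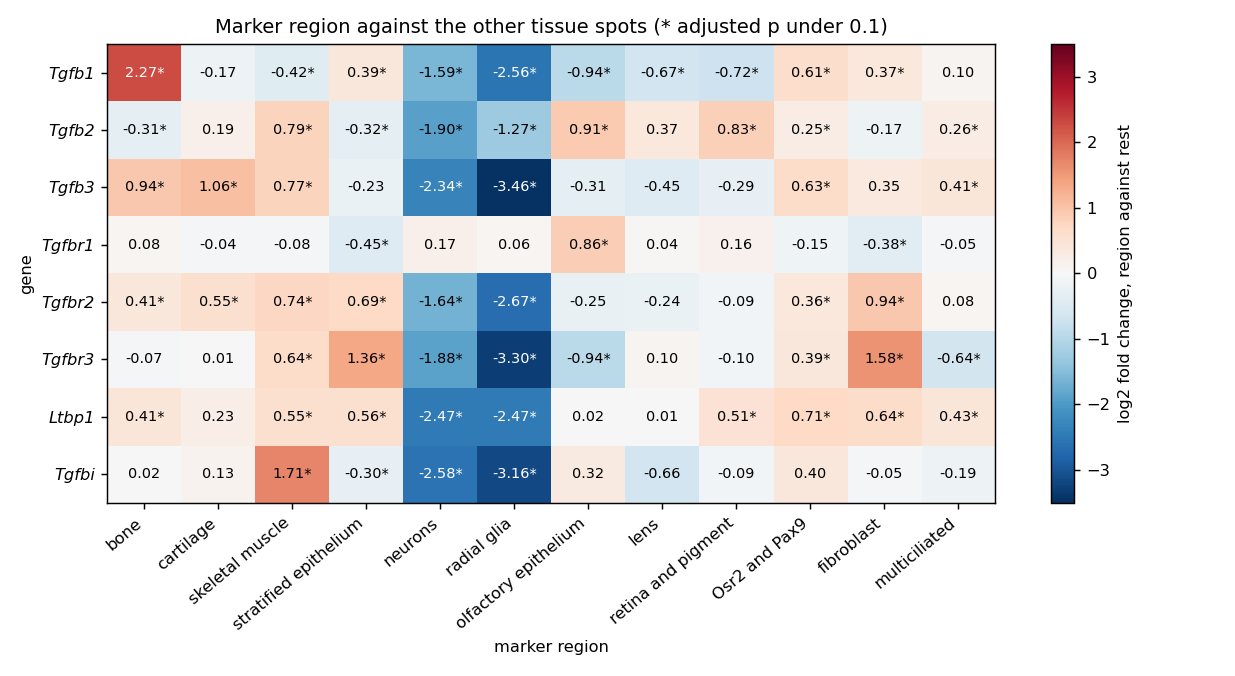
Log2 fold change of each gene (rows) in each marker region (columns) against the other tissue spots, from 4 capture areas (lens and multiciliated, 3); a star marks an adjusted p under 0.1. The neuron and radial glia columns are blue for 7 genes and near 0 for Tgfbr1, and the strongest red cells are Tgfb1 in bone, Tgfbi in skeletal muscle and Tgfbr3 in fibroblast and stratified epithelium spots.

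Among the ligands, Tgfb1, the isoform best known from bone matrix and blood cells, was concentrated in bone. In the bone spots it stood at 217 CPM in E14.5 replicate 1, 482 in E14.5 replicates 2 to 4, 332 in E15.5 replicate 1 and 366 in E15.5 replicates 2 to 4. The other tissue spots of these areas held 42.9, 95.3, 83.0 and 104 CPM, so the lowest bone value lay above the highest value of the rest. The difference was 4.84-fold (log2 2.27 ± 0.10 SE, n = 4 areas, edgeR adjusted p = 2.7e-05), and it was higher in 4 of 4 areas. Against the rest without neuron and radial glia spots it was log2 2.09. The highest regions of the other genes are given below against the full rest, and against this smaller rest their differences were lower. They were log2 0.81 for Tgfb3 in cartilage, and 0.68 for Tgfb2 and 0.84 for Tgfbr1 in olfactory spots. Tgfbr2 and Tgfbr3 in fibroblast spots were at 0.75 and 1.38, Ltbp1 in the Osr2 and Pax9 spots at 0.48 and Tgfbi in muscle at 1.51.

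The next regions in the order for Tgfb1 were the Osr2 and Pax9 spots (159 CPM ± 33.1 SD, n = 4), stratified epithelium (136 CPM ± 32.1) and fibroblast spots (135 CPM ± 31.6). Bone exceeded the Osr2 and Pax9 spots by log2 1.10 ± 0.23 (SD, n = 4), and epithelium and fibroblast spots did not differ beyond their spread. Radial glia spots were the lowest, at 17.0 CPM ± 5.86. Bone had the macrophage markers (6 of 6 in the files, none at 0) at a summed 177 to 266 CPM, against 179 to 250 CPM in all tissue, and the endothelial markers (7 of 7, none at 0) at 349 to 453 CPM against 295 to 402 CPM. The blood list (4 of its 5 genes in the files, none at 0) stood at 6058 to 7346 CPM in bone and 3970 to 7010 CPM in all tissue, and the part of these cells in the result was not tested. The calls of Tgfb1 in the Osr2 and Pax9 spots and in epithelium were lost without E14.5 replicates 2 to 4 (adjusted p = 0.13 and 0.14) and without E15.5 replicate 1 (0.15 and 0.20), and that in fibroblast spots without E15.5 replicate 1 (0.22).

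Tgfb3, the isoform known for palatal fusion, was highest in cartilage and bone. In cartilage it stood at 151 CPM in E14.5 replicate 1, 178 in E14.5 replicates 2 to 4, 154 in E15.5 replicate 1 and 197 in E15.5 replicates 2 to 4. The rest held 52.7, 88.4, 80.6 and 124 CPM, and the 2 sets did not overlap. The difference was 2.08-fold (log2 1.06 ± 0.12 SE, adjusted p = 0.0025, higher in 4 of 4 areas).

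Bone came next, with Tgfb3 at 145 CPM ± 16.1 (SD, n = 4) and a log2 difference of 0.94 ± 0.12 (SE, adjusted p = 0.0011). Skeletal muscle was higher than its rest by log2 0.77 ± 0.14 (adjusted p = 0.0035) and the Osr2 and Pax9 spots by 0.63 ± 0.11 (adjusted p = 0.0085). Cartilage lay above bone in 4 of 4 areas, whereas the Osr2 and Pax9 spots and muscle did not differ from each other beyond their spread. Epithelium held 78.1 CPM ± 16.7 of Tgfb3 and missed the threshold against the rest (log2 -0.23 ± 0.10 SE, edgeR adjusted p = 0.10). It was lower than the rest without neuron and radial glia spots (log2 -0.45, edgeR adjusted p = 0.0042). This region is stratified epithelium of the whole section. The medial edge epithelium was not set apart, so these values do not give the level of Tgfb3 in it. In radial glia Tgfb3 was at 7.49 CPM ± 3.60, log2 -3.46 ± 0.26 (SE) against the rest (adjusted p = 2.4e-04).

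Tgfb2 had another pattern, with its highest levels in olfactory epithelium, retina with pigment epithelium and muscle. Olfactory spots held 249, 321, 270 and 246 CPM in the 4 areas, in the order used above, and their rest held 97.9, 176, 130 and 172 CPM. Every olfactory value was above every value of the rest, and the difference was log2 0.91 ± 0.13 (SE, adjusted p = 0.0026). Retina spots followed with 248, 270, 232 and 232 CPM (log2 0.83 ± 0.16 SE, adjusted p = 0.025), and skeletal muscle with 144, 301, 206 and 242 CPM (log2 0.79 ± 0.10, adjusted p = 6.2e-04). Retina and muscle did not differ from each other beyond their spread. The retina list includes the pigment genes Tyr, Pmel and Mlana. Its spots held the blood list at a summed 5451 to 10040 CPM, against 3970 to 7010 CPM in all tissue. The part of these cells in the Tgfb2 result was not tested. In bone, where Tgfb1 was highest, Tgfb2 was lower than in the rest (113 CPM ± 19.3 SD, log2 -0.31 ± 0.11 SE, adjusted p = 0.056), a call that was lost without any 1 of 3 areas, E14.5 replicate 1 being the exception (adjusted p = 0.16 to 0.23). Neurons held the least Tgfb2, between 26.3 and 57.4 CPM over the areas.

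Of the receptors, the type I receptor Tgfbr1 was the evenest of the 8 genes over the regions. Its highest regional mean was 2.48-fold its lowest, whereas the same ratio ran from 6.51 for Tgfb2 to 26.2 for Tgfbr3. Neuron spots held 133, 114, 158 and 127 CPM of Tgfbr1, and radial glia spots 115, 111, 127 and 147 CPM. Neither region passed the test against its rest (log2 0.17 ± 0.08 SE, adjusted p = 0.11, and 0.06 ± 0.09, adjusted p = 0.57).

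The exception was the olfactory epithelium, with 225, 190, 243 and 246 CPM of Tgfbr1 against 118, 114, 129 and 127 CPM in the rest. The 2 sets did not overlap, and the difference was 1.81-fold (log2 0.86 ± 0.07 SE, adjusted p = 2.7e-04). The olfactory spots also held the cartilage markers (7 of 7, none at 0) at a summed 5296 to 7146 CPM, against 2444 to 4790 CPM in all tissue, and the multiciliated markers (5 of 5, at most 1 at 0) at 35.9 to 60.4 CPM, against 17.9 to 34.6 CPM. The part of these cells in the Tgfb2 and Tgfbr1 results was not tested. Tgfbr1 was lower than the rest in stratified epithelium (91.1 CPM ± 17.9 SD, log2 -0.45 ± 0.11 SE, adjusted p = 0.012) and in fibroblast spots (95.4 CPM ± 7.92, log2 -0.38 ± 0.11, adjusted p = 0.017). The fibroblast call was lost without E15.5 replicate 1 (adjusted p = 0.12).

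Tgfbr2, the ligand-binding type II receptor, was highest where Tgfbr1 was low. Fibroblast spots held 221, 152, 162 and 158 CPM of Tgfbr2 against 85.4, 74.0, 90.6 and 107 CPM in the rest. All 4 fibroblast values were above the rest, and the difference was log2 0.94 ± 0.13 (SE, adjusted p = 2.0e-04). Skeletal muscle (log2 0.74 ± 0.12, adjusted p = 0.0024) and stratified epithelium (0.69 ± 0.11, adjusted p = 0.0015) were also higher. In radial glia Tgfbr2 was at 14.1 CPM ± 6.18 (SD), log2 -2.67 ± 0.23 (SE) against the rest (adjusted p = 2.6e-04), in spots where Tgfbr1 stood at 125 CPM ± 16.2 and was not called.

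The co-receptor Tgfbr3 had the widest range over the regions. Fibroblast spots held 184, 140, 163 and 138 CPM, against 51.9, 38.6, 60.1 and 59.7 CPM in the rest. The groups did not overlap, and the difference was 2.99-fold (log2 1.58 ± 0.13 SE, adjusted p = 5.6e-06). Stratified epithelium followed with 176, 95.8, 141 and 109 CPM against 51.3, 35.9, 52.3 and 58.3 CPM (log2 1.36 ± 0.12, adjusted p = 6.3e-05), again with no overlap.

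Both of these regions held other cells. The epithelial spots also had more Col3a1, a collagen of connective tissue, than the rest (log2 1.14, adjusted p = 1.4e-04), and more Dcn, a matrix proteoglycan (log2 0.85, adjusted p = 4.1e-04). Fibroblast spots had the macrophage list (6 of 6 genes, none at 0) at 338 to 526 CPM, against 179 to 250 CPM in all tissue, and the endothelial list at 410 to 568 CPM, against 295 to 402 CPM. Their part in the Tgfbr2 and Tgfbr3 results was not tested. In olfactory spots, where Tgfbr1 was highest, Tgfbr3 was lower than in the rest (log2 -0.94 ± 0.11 SE, adjusted p = 0.0011, lower in 4 of 4 areas).

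**Figure D3:**
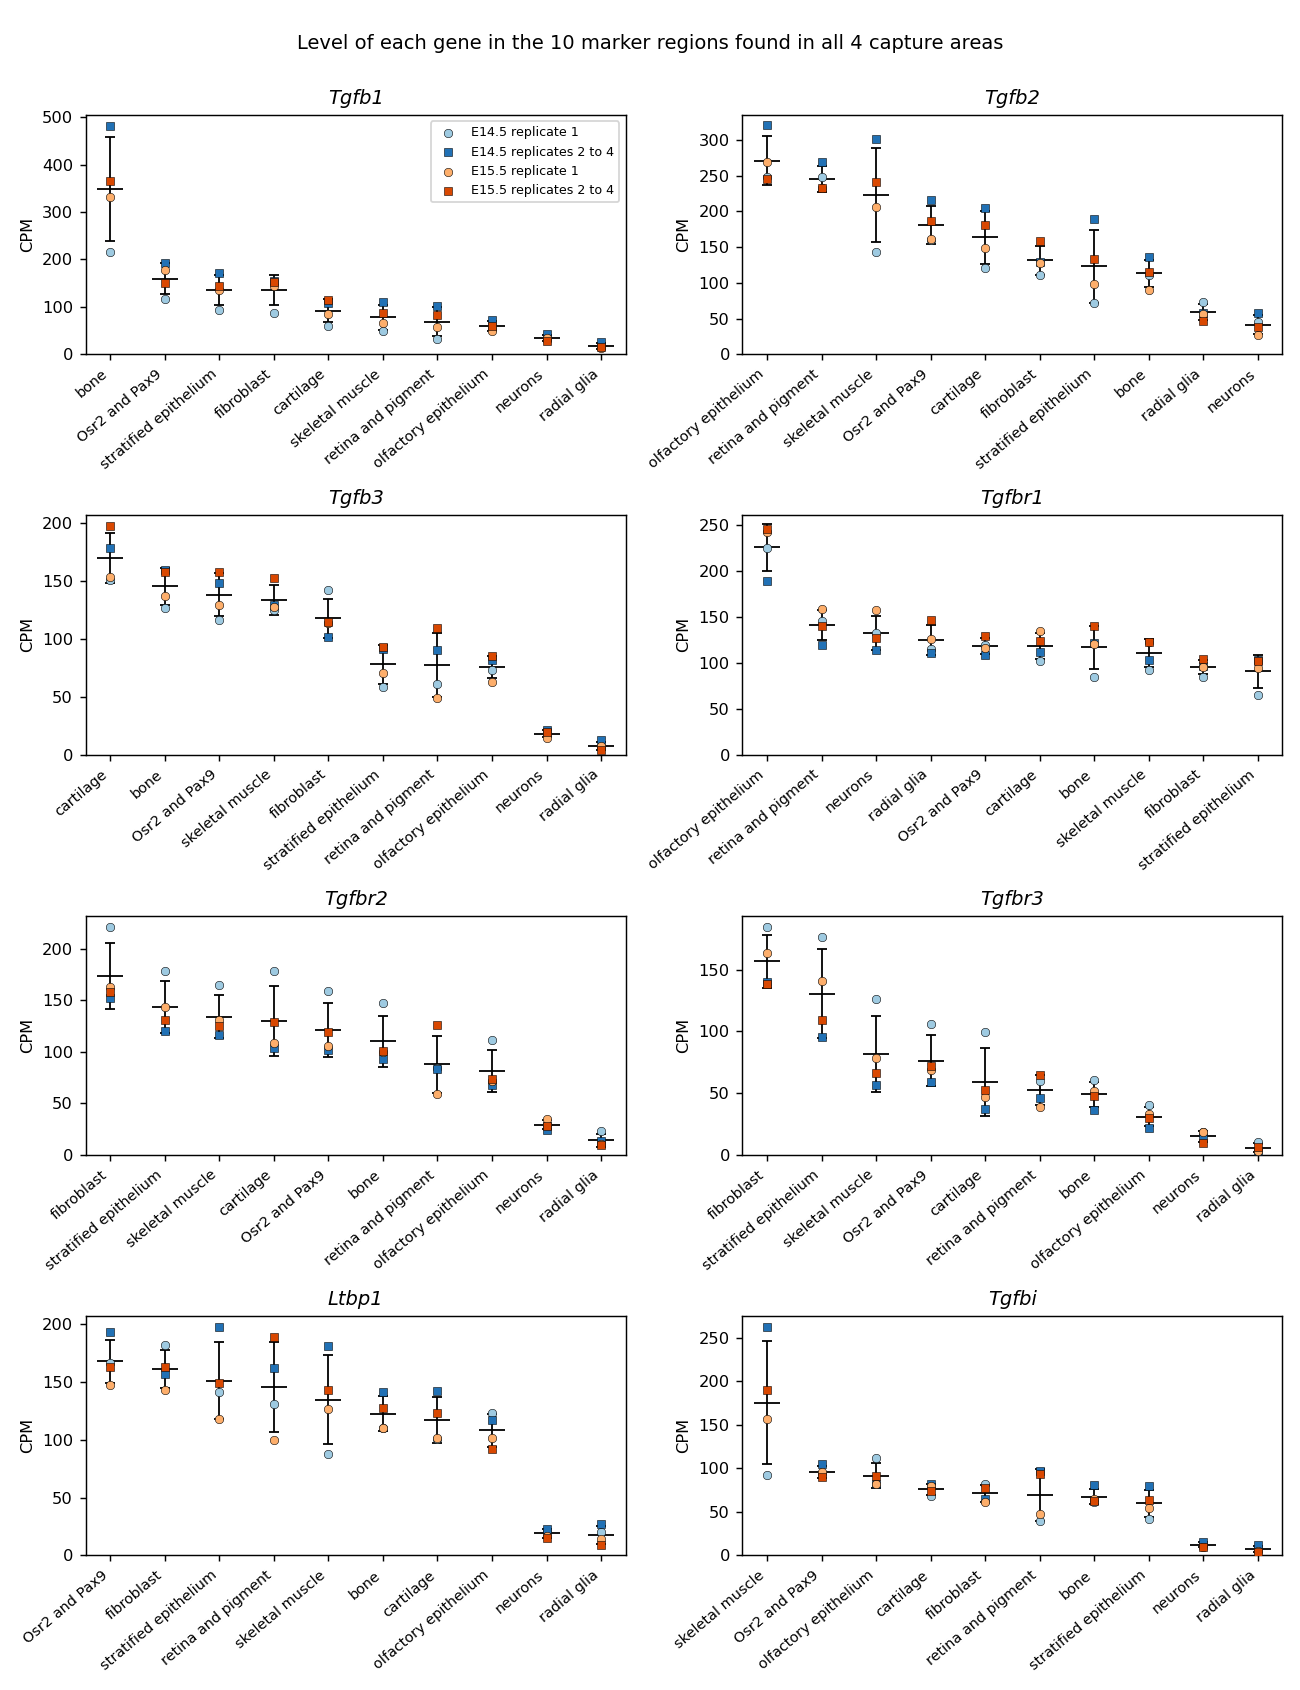
Level (CPM) of each gene in the 10 marker regions present in all 4 capture areas, ordered by mean. Points are capture areas, the dash and bars the mean ± SD of 4 areas. Tgfbr1 stays between 91.1 and 226 CPM on average, while the other 7 genes have their lowest means in neurons and radial glia.

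Ltbp1, which holds latent ligand in the matrix, was broad outside the brain. The Osr2 and Pax9 spots had the highest mean, with 166.5, 193, 147 and 163 CPM against 64.6, 115, 91.7 and 127 CPM in the rest. The groups did not overlap, and the difference was log2 0.71 ± 0.14 (SE, adjusted p = 0.012). These spots also held the markers of periderm and medial edge epithelium (5 of 5, none at 0) at a summed 257 to 432 CPM, against 72.5 to 144 CPM in all tissue, and the fibroblast markers (5 of the 6 listed were measured, none at 0) at 1308 to 1608 CPM, against 618 to 1290 CPM. Their part in the Ltbp1 result was not tested. Fibroblast spots (161 CPM ± 16.2 SD), epithelium (151 CPM ± 33.6), retina (145 CPM ± 38.7) and muscle (135 CPM ± 38.5) did not differ from their neighbours in the order beyond the spread. Below olfactory spots, at 108 CPM ± 14.2, the next level in the order was lower by log2 2.51 ± 0.12 (SD, n = 4), in neurons, at 19.1 CPM ± 3.73.

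Tgfbi, the matrix protein, was highest in skeletal muscle, above the next region in 3 of 4 areas. Skeletal muscle spots held 92.7, 262, 156 and 191 CPM against 39.2, 63.2, 55.0 and 71.2 CPM in the rest. Every muscle value lay above every value of the rest, and the difference was 3.28-fold (log2 1.71 ± 0.14 SE, adjusted p = 1.2e-04). In the E15.5 replicate 1 section the 48 muscle spots in the upper array rows held 242 CPM of Tgfbi and the 55 in the lower rows 74.0 CPM. This split at the median row was chosen after the map was seen, rests on 1 section and has no test. Tgfb1 was lower in muscle than in the rest (77.8 CPM ± 26.2 SD, log2 -0.42 ± 0.13 SE, adjusted p = 0.043), a call lost without either E15.5 area (adjusted p = 0.26 and 0.11).

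The region of each gene was chosen as its highest from these same counts, so a fall outside it was largely set by that choice. Every gene was lower in touching spots than in its region in 4 of 4 areas. Further out, levels did not always fall. Ltbp1 was at 134 CPM 2 steps away and 141 CPM 3 steps away. Tgfb2 was at 129 CPM 3 steps away and 142 CPM at 4 or more steps. Tgfb1 went from 349 CPM ± 109 (SD, n = 4) in bone to 167 CPM ± 42.7 in the spots touching it and 103 CPM ± 32.2 a spot further. It was lower at each of these steps in 4 of 4 areas. Tgfbr1 went from 226 CPM ± 25.8 in olfactory spots to 135 CPM ± 13.7 in the spots touching them and then lay between 121 and 126 CPM on average. Ltbp1 had the smallest first step, from 167 CPM ± 18.9 in the Osr2 and Pax9 spots to 150 CPM ± 18.5 in touching spots, and was lower there in 4 of 4 areas. Spots are wider than cells, and a touching spot can hold part of the region.

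**Figure D4:**
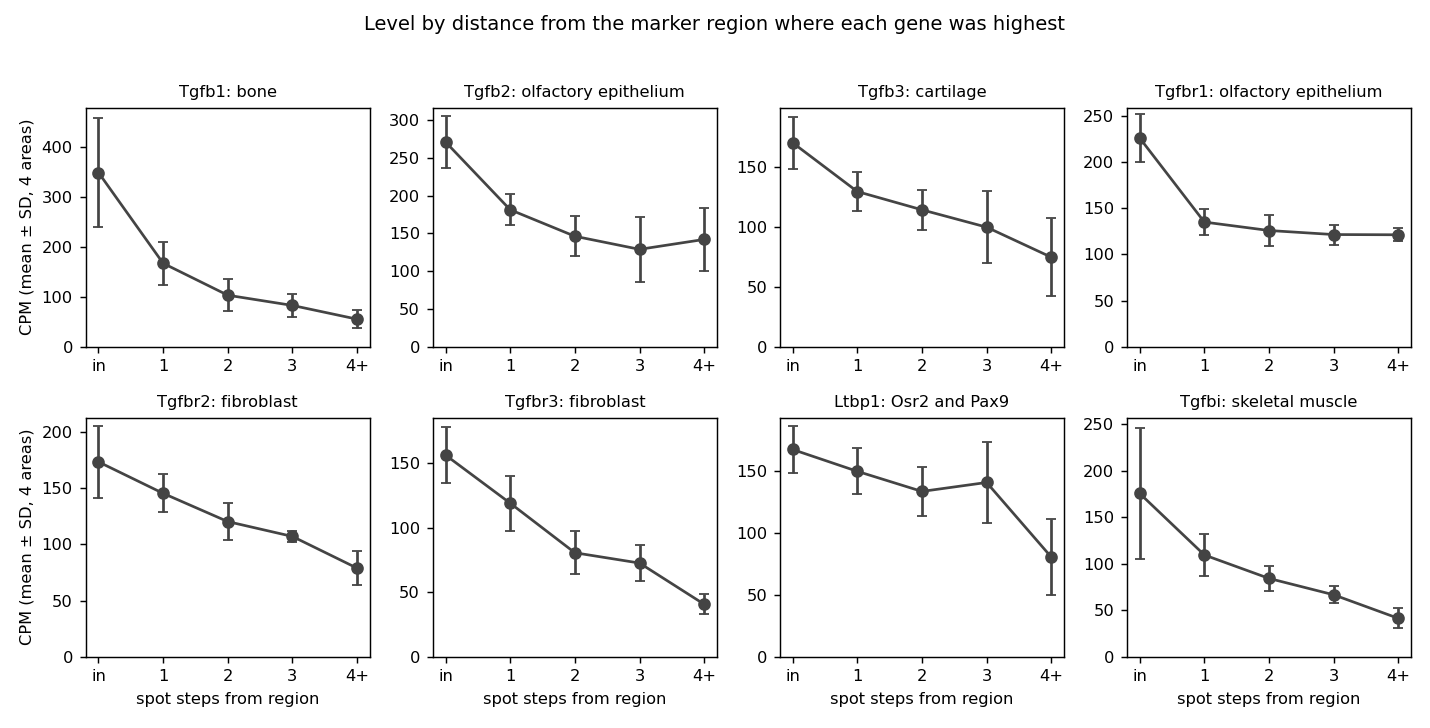
Level (CPM, mean ± SD of 4 capture areas) of each gene in the marker region where it was highest and in spots 1, 2, 3 and 4 or more steps away. The first step is largest for Tgfb1 around bone and for Tgfbr1 around the olfactory epithelium.

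Within the Osr2 and Pax9 spots, those touching an epithelial spot (160 spots) were compared with those that did not (249 spots), as a description with no test. Ltbp1 was higher next to epithelium in 4 of 4 areas, with 204 against 132 CPM in E14.5 replicate 1, 232 against 156 in E14.5 replicates 2 to 4, 159 against 141 in E15.5 replicate 1 and 200 against 141 in E15.5 replicates 2 to 4. Tgfb1 was also higher in 4 of 4 areas, by log2 0.12 to 1.05. Tgfb3 went the other way in 4 of 4 areas, by log2 -0.32 to -0.18, and so did Tgfbi, by -0.67 to -0.05. The touching spots held more of the epithelial keratin Krt5 (542 CPM ± 129 SD against 221 CPM ± 31.7) and of Pax9 (512 CPM ± 70.1 against 260 CPM ± 85.1), and the part of epithelial cells in these differences was not tested.

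Between the stages, none of the 8 genes passed the test over all tissue spots, and 0% of the 15609 genes tested did. None of the 8 had an unadjusted p under 0.05, against 930 of all genes, and DESeq2 called none of the 8 and 28 genes in all. The median log2 difference of the 8 (E15.5 minus E14.5) was 0.25, beside -0.0016 over all genes. Tgfb3 stood at 57.5 and 93.3 CPM in the E14.5 areas and at 83.3 and 130 CPM in the E15.5 areas. The stages overlapped, and the difference was log2 0.42 ± 0.33 (SE, adjusted p = 0.78).

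Tgfbr3 was at 54.9 and 39.7 CPM at E14.5 and at 62.5 and 63.4 CPM at E15.5 (log2 0.36 ± 0.24 SE, edgeR adjusted p = 0.77). Tgfbr2 was at 88.5 and 74.9 CPM against 92.2 and 109 CPM, and Tgfbr1 at 123 and 118 CPM against 135 and 131 CPM. Neither passed the threshold (log2 0.24 ± 0.22 and 0.08 ± 0.21). Over the 4 sections of a stage Tgfbr1 ranged from 108 to 132 CPM at E14.5 and from 122 to 139 CPM at E15.5, Tgfbr2 from 69.5 to 114 and from 92.2 to 124 CPM, and Tgfbr3 from 36.9 to 66.4 and from 53.7 to 68.1 CPM. Single sections of the stages thus overlapped for all 3 receptors. The remaining genes differed by log2 0.33 ± 0.44 (Tgfb1), 0.03 ± 0.32 (Tgfb2), 0.19 ± 0.32 (Ltbp1) and 0.26 ± 0.36 (Tgfbi).

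**Figure D5:**
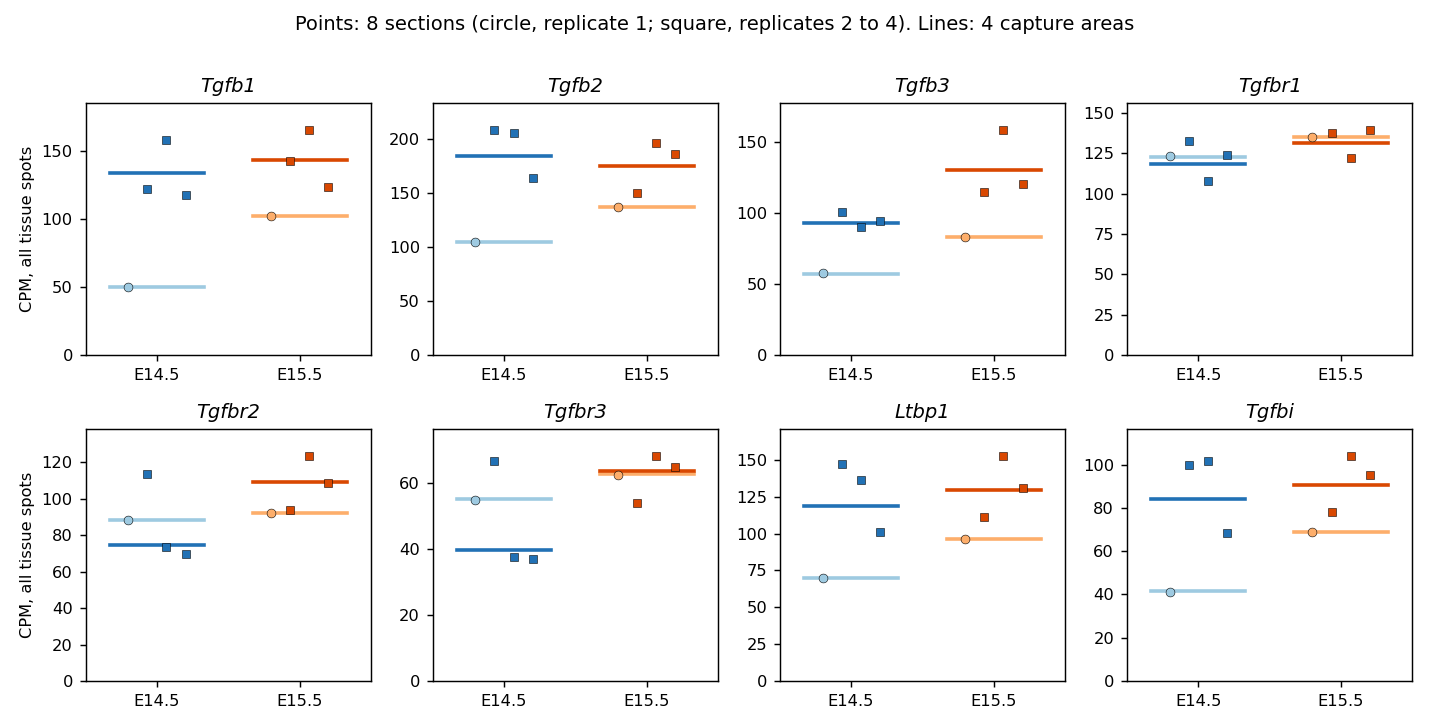
Level (CPM over all tissue spots) of each gene at E14.5 and E15.5. Points are the 8 sections and lines the 4 capture areas; no gene passed the test between stages, and the E14.5 replicate 1 section is the lowest for Tgfb1, Tgfb2, Tgfb3, Ltbp1 and Tgfbi.

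The share of brain differed between the areas. Neuron and radial glia spots gave 35.8% of the UMIs in E14.5 replicate 1, 12.4% in E14.5 replicates 2 to 4, 17.8% in E15.5 replicate 1 and 6.58% in E15.5 replicates 2 to 4. The E14.5 replicate 1 area, with the largest share, also had the lowest level of Tgfb1, Tgfb2, Tgfb3, Ltbp1 and Tgfbi, but Tgfbr1, Tgfbr2 and Tgfbr3 were higher there than in E14.5 replicates 2 to 4, and the part of brain in the stage differences was not tested. Without those spots none of the 8 genes was called and none of 15517 genes was, and the log2 differences were 0.29 ± 0.37 (SE) for Tgfb1, -0.0030 ± 0.28 for Tgfb2, 0.30 ± 0.25 for Tgfb3, 0.10 ± 0.20 for Tgfbr1, 0.09 ± 0.23 for Tgfbr2, 0.20 ± 0.28 for Tgfbr3, 0.09 ± 0.25 for Ltbp1 and 0.18 ± 0.29 for Tgfbi. All but that of Tgfbr1 were smaller than over all tissue. Without E14.5 replicate 1 the signs of Tgfb1, Tgfb2, Ltbp1 and Tgfbi turned.

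In the Osr2 and Pax9 spots alone, where neuron and radial glia spots are left out, none of the 8 genes was called between stages, against 0.00773% of 12934 genes. None had an unadjusted p under 0.05, against 248 of all genes. DESeq2 called none of the 8 and 1 gene in all. Ltbp1 was at 166.5 and 193 CPM at E14.5 and at 147 and 163 CPM at E15.5 (log2 -0.28 ± 0.24 SE, edgeR adjusted p = 0.9998). Tgfb3, the fusion isoform, was at 117 and 149 CPM against 130 and 158 CPM (log2 0.04 ± 0.25). Tgfb1 was at 117 and 192 CPM against 177 and 151 CPM (log2 -0.02 ± 0.27), and the stages overlapped for both.

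Whether a region's contrast with the rest changed between the stages was tested in the 10 regions of all areas, and 0 of the 80 gene and region pairs were called by edgeR. The smallest adjusted p was 0.25, and 20 pairs (25%) had an unadjusted p under 0.05, against 7.89% of the tests over all genes in these regions. Each of these 20 differences was negative. The 80 pairs are not independent tests, because the same 8 genes recur in 10 regions whose rests overlap. The rest changed as well. Neuron and radial glia spots, which enter the rest of other regions, gave 35.8% and 12.4% of the UMIs in the E14.5 areas. They gave 17.8% and 6.58% in the E15.5 areas, and their part in these differences was not tested. Over all genes the share called was 3.14% for bone, 0.255% for the Osr2 and Pax9 spots, 0.0139% for muscle, 0.0141% for epithelium, 0.00711% for fibroblast spots and 0% for the other 5 regions. Tgfb1 in bone was enriched by log2 2.34 and 2.34 in the E14.5 areas and by 1.999 and 1.81 in the E15.5 areas, a difference of -0.37 ± 0.15 (SE, adjusted p = 0.31). Leaving out 1 area leaves 1 area in its stage, which is then assumed to vary like those of the other stage, and in each region where they called one of the 8 genes these fits also called a larger share of all genes. Without E14.5 replicate 1 the Tgfb1 difference in bone was called (-0.44, adjusted p = 0.070), the only call among the 80 pairs, where 6.88% of all genes were called in bone. Without E14.5 replicates 2 to 4 there were 10 calls, 4 in bone (10.3% of all genes), 3 in cartilage (12.4%) and 3 in fibroblast spots (2.45%). Without E15.5 replicate 1 there were 5, 4 in neurons (8.83%) and 1 in the Osr2 and Pax9 spots (3.87%), and without E15.5 replicates 2 to 4 there were 4, all in retina (6.4%).

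Other genes of the pathway were read from a list of 48, of which 47 were tested. Between stages over all tissue none was called, 5 had an unadjusted p under 0.05 and the median log2 difference was 0.26. The smallest p belonged to Ccn2, a secreted target of the pathway, with 26.4 and 23.6 CPM at E14.5 and 35.1 and 53.8 CPM at E15.5 (log2 0.77 ± 0.29 SE, adjusted p = 0.77). Fbn1, the fibrillin that binds latent complexes, was next, with 82.6 and 55.9 CPM against 99.96 and 132 CPM (log2 0.69 ± 0.26, adjusted p = 0.77). In the Osr2 and Pax9 spots none of the 47 was called by edgeR or DESeq2, 2 had an unadjusted p under 0.05 and the median log2 difference was -0.067. They were Ltbp2, a relative of Ltbp1, with 18.4 and 31.8 CPM at E14.5 and 10.99 and 18.6 CPM at E15.5, which overlap, and the inhibitor Smad6, with 10.5 and 5.63 CPM against 14.5 and 13.03 CPM (log2 -0.92 ± 0.37 and 0.93 ± 0.43 SE, both at adjusted p = 0.9998).

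By region, with the share of all genes in parentheses after each count, in bone 29 of the 47 were higher (25.2%) and 5 lower (26.8%), led by the matrix protease Mmp9 (log2 3.35), the decoy receptor Bambi (2.08) and the collagens Col1a1 (2.70) and Col1a2 (2.59). In cartilage 16 were higher (12.8%) and 4 lower (9.09%), led by Thbs1, which can activate latent ligand (log2 1.75), and Ccn2 (2.46). In muscle 16 were higher (20.6%) and 3 lower (24.4%), with Acta2 (2.40) and the ligand-activating integrin subunit Itgb6 (2.24) first. In the Osr2 and Pax9 spots 27 were higher (15.8%) and none lower (21.5%), with Postn (1.13), Fbn2 (0.79), the inhibitor Smad7 (0.50) and the integrin subunit Itgb5 (0.91) first. In fibroblast spots 26 were higher (19.1%) and 4 lower (21.4%), with Postn (1.52) and Nrros, an anchor of latent ligand on macrophages (1.46), among the first. In epithelium 21 were higher (26%) and 4 lower (23.1%), and Lrrc32, which anchors latent ligand at the cell surface, was among the first (1.299). Olfactory spots had 5 higher (16.8%) and 14 lower (14.3%), with Itgb6 higher (1.16) and Mmp9 lower (-2.20), and retina spots 8 higher (8.57%) and 4 lower (9.36%), with Pmepa1, a pathway inhibitor, higher (0.89).

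Neuron spots had 40 of the 47 lower (39.9% of all genes) and 3 higher (35.6%), and radial glia spots 38 lower (37.5%) and 3 higher (30.9%). In radial glia the integrin subunit Itgb8, which helps to activate latent ligand, was higher (log2 1.95, adjusted p = 2.4e-04), in spots where all 3 ligands were lower than in the rest. For the stage difference of the contrasts, 1 of the 47 genes was called in bone, Col3a1, beside 3.14% of all genes there, and none in the other 9 regions. Col3a1 was higher in bone than in the rest by log2 0.96 and 0.57 in the E14.5 areas and by 0.05 and -0.10 in the E15.5 areas (difference -0.72 ± 0.16 SE, adjusted p = 0.048).

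The patterns of the 8 genes were also set beside those of all 15609 tested genes over 247 tiles of neighbouring spots, after centring within each area. Tgfb1 was most like Creb3l1 (Pearson r = 0.89), Sparc (0.89) and P4ha2 (0.88). Tgfb3 and Tgfbr2 both had Igf2 among their nearest genes (r = 0.90 and 0.90), Tgfb3 beside Igfbp4 (0.91) and Tpm1 (0.91) and Tgfbr2 beside Myl12a (0.91) and Anxa6 (0.91). Tgfbr3 was most like the collagens Col3a1 (0.87), Col6a2 (0.87) and Col6a1 (0.86), and Ltbp1 most like Emilin3 (0.91), Antxr1 (0.90) and Fbln5 (0.89), which are matrix or matrix-binding proteins.

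Tgfb2 was most like Smo (0.79), Hadh (0.79) and Ccdc8 (0.79), and Tgfbi most like Maged2 (0.81), Vcl (0.80) and Itm2a (0.80). For Tgfbr1 the nearest genes, Trappc9 (0.54), Pdzd11 (0.54) and Cenpb (0.52), were less like it, and for Trappc9 r ran from -0.04 to 0.82 over the areas. Among the 8 genes, the 21 pairs without Tgfbr1 had r between 0.37 and 0.82, the highest being Tgfbr2 with Tgfbr3, and the 7 pairs with Tgfbr1 had r between -0.29 and 0.09. Tiles of an area share a library and its tissue makeup, so these values are descriptions only, and the choice of the nearest genes changed with the tiles: 13 of the 24 stayed with tiles of a smaller side (3 array units in place of 6) and 6 with tiles of a larger side (12 array units).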

How the data were processed

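The values are counts of UMIs for each gene in each spot, deposited by the authors for 4 Visium capture areas. Per the file headers, Space Ranger 1.3.1 wrote both matrices of replicate 1 and Space Ranger 2.0.0 both matrices of replicates 2 to 4, so the version did not differ between stages, and the submitters' processing notes name mm10. The probe set and annotation are not given in the sources used here. Counts were summed over the tissue spots of an area or of a marker region. A spot with at least 1000 UMIs joined the region with the highest marker score if that score was at least 2.5 and at least 5 UMIs of the list were present. Sums were tested with edgeR 4.0.16 in R 4.3.3 (TMM scaling, filterByExpr, quasi-likelihood test, Benjamini-Hochberg adjustment over all genes, threshold 0.1), with the capture area as a block for regions. DESeq2 1.42.0 was an alternative, and the fits were tested on simulated data. Likeness was Pearson's r of log2(CPM + 5) over tiles of at least 50000 UMIs. All 8 genes were named, with the 3 genes most like each. Pathway genes were named from the 4 with the smallest adjusted p in a comparison, or the 2 with the smallest p where none was called. The genes and lists were chosen with earlier results of these data known. Left out were 19 off-tissue barcodes and 12 tissue spots without counts, and Twist2 and Hba-a1 were not analysed here.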

Additional observations from a re-analysis of the deposited data

How the results depend on the processing

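No alternative gave a call between stages for any of the 8 genes. Signs did turn when a capture area was left out. The lone area left in a stage is then assumed to vary like the other stage. In all tissue the log2 differences without E14.5 replicate 1 and without E15.5 replicate 1 were -0.23 and 0.55 for Tgfb1, -0.34 and 0.19 for Tgfb2, -0.18 and 0.38 for Ltbp1 and -0.18 and 0.44 for Tgfbi, and without E15.5 replicates 2 to 4 Tgfb2 was at -0.13 and Ltbp1 at -0.022. Tgfb2 also turned with sections as samples (-0.11) and without neuron and radial glia spots (-0.0030). Taking out those spots, here and from the rest of each region, was chosen after seeing the data. In the Osr2 and Pax9 spots the values without E14.5 replicate 1 and without E15.5 replicate 1 were -0.14 and 0.20 for Tgfb3, 0.053 and -0.13 for Tgfbr2 and 0.15 and -0.18 for Tgfbr3. Without E14.5 replicates 2 to 4 Tgfb1 was at 0.48 and Tgfb2 at 0.12, and without E15.5 replicates 2 to 4 Tgfb1 was at 0.091, Tgfb3 at -0.12 and Tgfbr1 at -0.031. Tgfb1 turned with library size in place of TMM (0.050) and with a stricter region score (0.031), and Tgfb3 with the latter (-0.079). The replicate block called none of the 8 genes and put Tgfb1 in the Osr2 and Pax9 spots at 0.040. It called 10 of all genes there, in place of 1. The replicate numbers make only 2 pairs. Areas of a pair had the same Space Ranger version (1.3.1 for replicate 1, 2.0.0 for replicates 2 to 4). They also held the same number of sections at both stages, and the labels name nothing else that they share. The pairing correlation was 0.25 in all tissue and -0.00059 in the Osr2 and Pax9 spots.

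Of the 58 region calls, 37 held in every refit that covered the region. The number called ran from 46 to 75. The 75 came with k-means clusters, some of which were matched to more than 1 region and so were counted more than once. The share of all genes called is not given for them. The 46 came with the rest without neuron and radial glia spots (10 regions, 24 higher and 22 lower in place of 33 and 11). The shares of all genes against that rest are given with the region results. The clusters matched the regions only in part. Lens and retina spots were matched to the same cluster, and so were multiciliated spots and the Osr2 and Pax9 spots. The cluster matched to multiciliated spots held 495 spots, of which 75 were multiciliated and 182 were Osr2 and Pax9 spots. Tgfbr3 turned there (0.039), so this turn does not rest on multiciliated spots alone. Stage differences of region contrasts had 2 calls with no filter on low counts, 1 without E14.5 replicate 1, 10 without E14.5 replicates 2 to 4, 5 without E15.5 replicate 1 and 4 without E15.5 replicates 2 to 4. The calls with no filter were Tgfbr2 in bone and Tgfbr3 in the Osr2 and Pax9 spots. That setting also called more of all genes. In bone it called 5.46% of 19157 genes, against 3.14% with the filter. In the Osr2 and Pax9 spots it called 2.54%, against 0.255% with the filter. Of the 24 nearest genes 13 stayed with the smaller tiles, 6 with the larger, and between 11 and 19 without 1 area (13 without E14.5 replicate 1). The cause was not tested. Depth was lowest in E14.5 replicate 1.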
